A study of Mus musculus with 8 samples.

Results

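A group of 10 genes that mark blood vessel endothelium, out of the 21938 protein-coding genes of the annotation, were followed in the H3K27ac peak lists of 4 mouse breast tumors. They were the vascular endothelial growth factor (VEGF) receptors Kdr and Flt1, the angiopoietin receptor Tek and its relative Tie1, the TGF-beta family co-receptor Eng, the junction proteins Cdh5 and Pecam1, the secreted or matrix proteins Egfl7 and Mmrn2, and the transcriptional repressor Bcl6b. Only Kdr, Flt1, Tek, Tie1 and Eng are receptors or co-receptors of angiogenic ligands, so the group is broader than angiogenic receptors. For each gene the peaks lying in the gene body plus 50 kb on either side were taken from every tumor. The genes were chosen by name with the peak values of these same tumors known, so the difference between the groups at these genes is given as a description without a test.

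Endothelial cells line blood vessels. VEGF binds Kdr and Flt1 on their surface and drives sprouting, angiopoietins act through Tek to steady the new vessel, and Cdh5 and Pecam1 hold neighbouring cells together. Acetylation of histone H3 at lysine 27 (H3K27ac) marks promoters and enhancers in use, and in the cells of a lineage it is found both at the starts of lineage genes and within their introns.

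The comparison was between 2 control and 2 test tumors, each a breast tumor of a Balb/c mouse whose mammary epithelium was transformed by the polyoma middle T oncogene (PyMT, driven by the MMTV promoter). All mice were Rag1KO, which leaves them without T and B cells of their own, and all received CD4+ T cells by injection when 4 weeks old. Control mice were PyMT;Rag1KO, and test mice were K14-TSLPtg;PyMT;Rag1KO, which also express thymic stromal lymphopoietin (TSLP) from the keratin 14 promoter of surface epithelium. Between 10 and 30 mg of each tumor was used. The sample titles carry the word tumor in the control group and cyst in the test group, and the age at collection of these 4 tumors was not given in the labels. No endothelial cells were sorted, so the peaks come from whole tumors. The comparison asks how active chromatin at vessel genes differed between tumors that grew with and without the TSLP transgene.

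The lists held 69861 and 67850 peaks in control tumors and 65763 and 59762 in test tumors, covering 2.36% to 2.68% of the genome. Test 2 had the fewest peaks, and 57.0% of the 91238 regions made by joining the 4 lists were present in it, against 63.5% to 67.4% in the others. Read depth is unknown and no peak height is given, so a region without a peak was below the caller's threshold and is not shown to lack the mark. All 15 luminal epithelial genes examined had a peak at a start in each of the 4 tumors, as did 11414 of the 21938 protein-coding genes. The 15 were chosen with earlier results of these data known, so this does not test the tissue label.

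Sequences just upstream of the RefSeq start are shown for Kdr, Flt1, Tek and Eng, picked as examples with their values known, because these starts ranged from bare in every tumor to covered in both control tumors. Each line gives the 200 bases before the start (RefSeq, GRCm38.p6), written 5′ to 3′ on the gene's strand. Capitals mark the letters AGGAAG on either strand, a core that ETS family factors of endothelium can bind.
Kdr, chr5:75978456-75978655, minus strand: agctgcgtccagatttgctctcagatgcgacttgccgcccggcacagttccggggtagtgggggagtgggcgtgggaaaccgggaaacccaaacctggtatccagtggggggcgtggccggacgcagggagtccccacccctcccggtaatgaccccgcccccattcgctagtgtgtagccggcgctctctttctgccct
Flt1, chr5:147726012-147726211, minus strand: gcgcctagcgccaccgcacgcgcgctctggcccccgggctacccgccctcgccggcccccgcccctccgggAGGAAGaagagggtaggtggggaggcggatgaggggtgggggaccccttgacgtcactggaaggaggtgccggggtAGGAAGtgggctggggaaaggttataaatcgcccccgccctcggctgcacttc
Tek, chr4:94739089-94739288, plus strand: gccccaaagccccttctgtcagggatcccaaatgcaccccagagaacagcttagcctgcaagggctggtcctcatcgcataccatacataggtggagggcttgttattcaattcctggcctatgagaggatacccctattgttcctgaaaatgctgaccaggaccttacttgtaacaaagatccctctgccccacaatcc
Eng, chr2:32646395-32646594, plus strand: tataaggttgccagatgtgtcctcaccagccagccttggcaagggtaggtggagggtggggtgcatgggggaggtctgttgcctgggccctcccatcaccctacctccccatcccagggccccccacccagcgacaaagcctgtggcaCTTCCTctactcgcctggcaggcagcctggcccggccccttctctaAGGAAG
Flt1 and Eng held the letters 2 times each, and Kdr and Tek did not hold them. The table matched 6 of the 10 members with 8 starts (Kdr, Flt1, Tek, Tie1, Eng and Egfl7), and Cdh5, Pecam1, Mmrn2 and Bcl6b were not matched. AGGAAG was found in 4 of the 8, at Flt1, at Eng and at alternative starts of Egfl7, against 24.7% of 32851 RefSeq promoters at the same length. The starts of Egfl7 belong to a single gene and do not count as separate members. The other 3 motifs searched on both strands were found in none of the 8 and so overlapped no ETS letters. For GATA factors the letters were AGATAA, held by 7.80% of all promoters. For forkhead factors they were TGTTTAC, held by 2.51%. For AP-1 they were TGACTCA, held by 3.66%. The Flt1 and Kdr sequences were rich in G and C, at 71.5% and 65.5%, and the Tek sequence stood at 51.5%, near the median of 53% over all promoters.

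Across the 10 genes, the share of the window covered by peaks was lower on average in test tumors for 8 and higher for 2. Both control tumors lay above both test tumors for 6 genes (Eng, Egfl7, Bcl6b, Mmrn2, Cdh5 and Kdr), and no gene had the reverse order. Among all 18693 genes with any coverage, 13.0% had the first order and 17.3% the second. Of the 6, Egfl7 and Bcl6b had nearly all their covered bases outside the gene and its starts in every tumor. The median difference, test minus control, was -0.73 percentage points over the members and 0.02 over all genes, and the members' median had an SD of 0.43 when each test tumor was set against each control tumor. In a whole tumor, fewer endothelial cells and less acetylation per endothelial cell cannot be told apart. Without test 2, 7 of the 10 genes had both control tumors above test 1, against 20.5% of all covered genes, with a median difference of -0.56 over the members, and this order asks for fewer comparisons by construction. The median was -0.37 without control 1, -1.08 without control 2 and -0.89 without test 1. With 100 kb on either side of the genes the order held for 3 of the 10, against 12.9% of all covered genes. With each list limited to its 59762 widest peaks, the number of test 2, it held for 4 of the 10, against 11.7% of all covered genes, and the members' median difference was -0.69. With 2 tumors per group there are 3 ways to split the tumors, and no permutation test could pass 0.05.

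**Figure D1:**
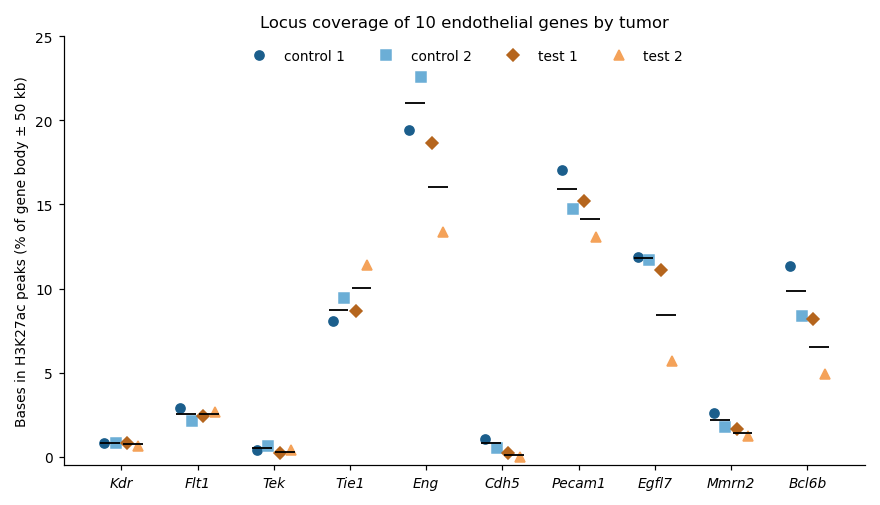
Percent of bases in H3K27ac peaks (y axis) in the gene body plus 50 kb on either side of each of the 10 genes (x axis). Points are single tumors and black bars are the means of 2 tumors per group. Eng shows the largest gap between the means, at 21.02% and 16.0%, and Kdr, Tek and Cdh5 lie near the bottom in every tumor.

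Kdr, the main VEGF receptor of growing vessels (chr5:75932827-75978458, minus strand), was among the least covered. Its window was covered at 0.827% and 0.847% in control tumors and at 0.805% and 0.661% in test tumors. The groups did not overlap, although the mean difference of -0.10 percentage points was the smallest among the 6 genes with this order. Apart from that of control 2, the coverage came from 1 region, chr5:75933123-75934327, which lies within the 3′ untranslated exon of Kdr and was 1205 and 1075 bp wide in control tumors and 1173 and 963 bp in test tumors. Those widths overlap between the groups, and the order of the windows rests on a further 158 bp peak in the first 4 kb of the gene in control 2. The difference was -0.03 points without test 2 and -0.18 without test 1. The Kdr start printed above, with its 15 CG pairs, had no peak within 1 kb in any tumor.

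Flt1, a VEGF receptor that also acts as a decoy (chr5:147561604-147726011, minus strand), had near-equal group means of 2.53% and 2.56%, a difference of 0.03 points that was -0.08 without test 2, 0.40 without control 1 and -0.34 without control 2. Its window was covered at 2.90% and 2.15% in control tumors and at 2.45% and 2.67% in test tumors, and the groups overlapped. Peaks within 1 kb of its start covered 553 bp in control 1 and 645 bp in test 1, and none was present in control 2 or test 2. Test 2, bare at the Flt1 start, had the most peaks inside the gene. Of 5 regions between 100 and 150 kb downstream of the start, singled out after their values were seen, test 2 had all 5, covering 2.47 kb, control 1 had 1 and control 2 had 2, covering 0.330 and 0.374 kb, and test 1 had none.

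Tek, the receptor of angiopoietins (chr4:94739289-94874976, plus strand), and Tie1, its partner receptor (chr4:118471191-118490061, minus strand), had no peak at a start or in the gene body in any of the 4 tumors. The whole coverage of Tek's window was 1 intergenic region upstream of the gene, chr4:94732109-94733618, covered over 903 and 1510 bp in control tumors and 514 and 943 bp in test tumors. Test 1 was lowest and control 2 highest there, and the groups overlapped. Tie1's window was covered at 8.06% and 9.42% in control tumors and at 8.64% and 11.4% in test tumors. Every base of it lay at the starts or in the bodies of other genes or between genes, so the positive difference of 1.29 percentage points was not measured on Tie1 itself. Without test 2 it was -0.09 points.

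Eng, the co-receptor endoglin that binds BMP and TGF-beta family ligands on vessels (chr2:32646595-32682669, plus strand), had the largest mean difference with all 4 tumors. Its window was covered at 19.5% and 22.6% in control tumors, a mean of 21.02% ± 2.22 (SD, n = 2), and at 18.7% and 13.3% in test tumors, a mean of 16.0% ± 3.77 (SD, n = 2). Both control tumors were above both test tumors, with a difference of -5.01 points between the means and an SD of 3.57 over the 4 tumor pairs. Without test 2 the difference was -2.35 points and without test 1 -7.67. Without control 2 it was -3.44, and Bcl6b then had a larger one, at -4.78. In the gene body alone the shares were 11.4% and 18.3% in control tumors and 6.34% and 2.21% in test tumors.

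At the start of Eng, region chr2:32646610-32648318, which begins just downstream of the bases printed above, was covered over 435 bp in control 1 and over 1709 bp in control 2. No peak was present there in either test tumor. About 7 kb from the start, the intronic region chr2:32653538-32654349 was covered over 178 and 812 bp in control tumors and was again absent from both test tumors. The next region, chr2:32654932-32655927, was present in all 4 tumors, at 908 and 718 bp in control tumors and 278 and 201 bp in test tumors. The widest, at the 3′ end of the gene (chr2:32679627-32682290), was covered over 2591 and 2253 bp in control tumors and 1748 and 596 bp in test tumors. At each of these 4 places both control tumors exceeded both test tumors. Upstream, 2 regions at the starts of Ak1 and 1 in its body also had the control tumors wider, and a region at the starts of St6galnac6 had the test tumors wider.

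Cdh5, VE-cadherin, the adhesion molecule of endothelial junctions (chr8:104101625-104144511, plus strand), was the gene at which a tumor was empty. Its window was covered at 1.08% and 0.517% in control tumors, at 0.232% in test 1 and at 0% in test 2, so no peak lay within 50 kb of the gene in test 2. The difference of -0.68 points was -0.40 without control 1 and 0 with peaks of at least 1 kb. Within 1 kb of the start, peaks covered 957 and 257 bp in control tumors and 166 bp in test 1. In an intron, region chr8:104103003-104103549 was covered over 353 and 324 bp in the control tumors and absent from both test tumors. All 7 regions of the window lay at the start or in the gene, and control 1 had 5 of them, control 2 had 3 and test 1 had 2. A noncoding gene, Gm29682, overlaps the start of Cdh5 and this intronic region, and the peaks at both places cannot be assigned to either gene.

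Pecam1, also known as CD31, an adhesion molecule of endothelium that leukocytes and platelets carry as well (chr11:106654217-106750628, minus strand), had the most bases in peaks inside its gene in each tumor. Its window was covered at 17.1% and 14.8% in control tumors and at 15.2% and 13.0% in test tumors, and the groups overlapped because test 1 lay above control 2. The difference of -1.79 points ran from -0.62 without control 1 to -2.95 without control 2. Between 30 and 60 kb downstream of the start of its main transcript lay 10 regions, a stretch singled out after its values were seen. They covered 20.3 and 15.0 kb in control tumors and 15.0 and 11.9 kb in test tumors, so that control 2 and test 1 were level. The widest of them, chr11:106659093-106667081, was covered over 7988 and 6759 bp in control tumors and 6655 bp in each test tumor. Of the 10 regions of the window present in all 4 tumors, 4 were wider in both control tumors and all of these lay in Pecam1, against 13.3% of all such regions. A further 2, at starts of Tex2 and of Ddx5 and Cep95, were wider in both test tumors, against 19.1%. At the starts of Pecam1, peaks covered 633 and 638 bp in control tumors, 770 bp in test 1 and none in test 2, and a part of this came from a region shared with the start of Milr1. The 5′ end of the annotated gene belongs to a long transcript that begins beside Milr1, away from the main start.

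Egfl7 encodes a protein secreted by endothelium (chr2:26580014-26593120, plus strand) and carries miR-126a, a microRNA that tunes VEGF signalling, in an intron. Its mature sequence is shown because the nearest peak to it differed between the groups. Capitals mark the seed, bases 2 to 8, and this arm lies at chr2:26591402-26591423.
mmu-miR-126a-3p: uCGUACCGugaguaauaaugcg
The nearest peak lay 6.84 and 6.15 kb away in control tumors and 11.8 and 12.0 kb away in test tumors. Control 1 had a 201 bp peak and control 2 a 158 bp peak within Egfl7, at different places, and neither test tumor had a peak in the gene. The window as a whole was covered at 11.9% and 11.7% in control tumors and at 11.1% and 5.72% in test tumors. Test 1 lay close to the control tumors and test 2 far below, and the SD over the 4 tumor pairs, 3.12, was nearly as large as the mean difference of -3.37 points. With peaks of at least 1 kb alone the difference was 1.12 points, in favor of the test tumors. Without test 2 it was -0.66 points, and without test 1 it was -6.07. Both stretches described next were singled out after their values were seen. Upstream, 16 regions between 50 and 20 kb before the main start covered 7.55 and 7.21 kb in control tumors, 8.30 kb in test 1 and 3.30 kb in test 2. In this stretch 3 regions were found in each control tumor and in no test tumor (chr2:26543468-26543755, chr2:26552070-26552360 and chr2:26553466-26553943), against 3.41% of all regions. Nearer to the gene, between 10 and 1 kb before the main start, control 1 had 7 of 8 regions, control 2 had 1, test 1 had 2 and test 2 had none, so this stretch was mainly a property of control 1.

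Mmrn2, multimerin 2, a matrix glycoprotein of vessels (chr14:34375465-34404287, plus strand), was covered at 2.63% and 1.77% of its window in control tumors and at 1.64% and 1.22% in test tumors. The groups did not overlap, with control 2 and test 1 next to each other, and with 100 kb on either side the difference turned from -0.77 to 0.69 points. Without control 1 it was -0.35 points, and without control 2 it was -1.20. An intronic region, chr14:34377970-34380022, was present in all 4 tumors and was covered over 1973 and 1902 bp in control tumors and 1301 and 1569 bp in test tumors. A further intronic region, chr14:34387978-34388224, was covered over 247 and 165 bp in the control tumors and absent from both test tumors. At the start, peaks covered 605 bp in control 1 and 273 bp in test 1 and none in control 2 or test 2, in a region that also lies within 1 kb of a start of Sncg.

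Bcl6b, a repressor related to BCL6 and expressed in endothelium (chr11:70224128-70229798, minus strand), was covered at 11.3% and 8.36% of its window in control tumors and at 8.18% and 4.90% in test tumors. Its own peaks were small. Control 1 had 195 bp just upstream of the start and control 2 had 350 bp just downstream, in separate regions, and the test tumors had none within 1 kb. The widest region of the window lay at starts of the neighbours 0610010K14Rik, Gm21988 and Rnasek. Leaving out 1 tumor moved the window difference of -3.30 points to between -1.66 without test 2 and -4.94 without test 1. Downstream of the gene, 9 regions between 5 and 60 kb from the start, again singled out after their values were seen, covered 5.02 and 1.48 kb in control tumors, 1.47 kb in test 1 and none in test 2.

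**Figure D2:**
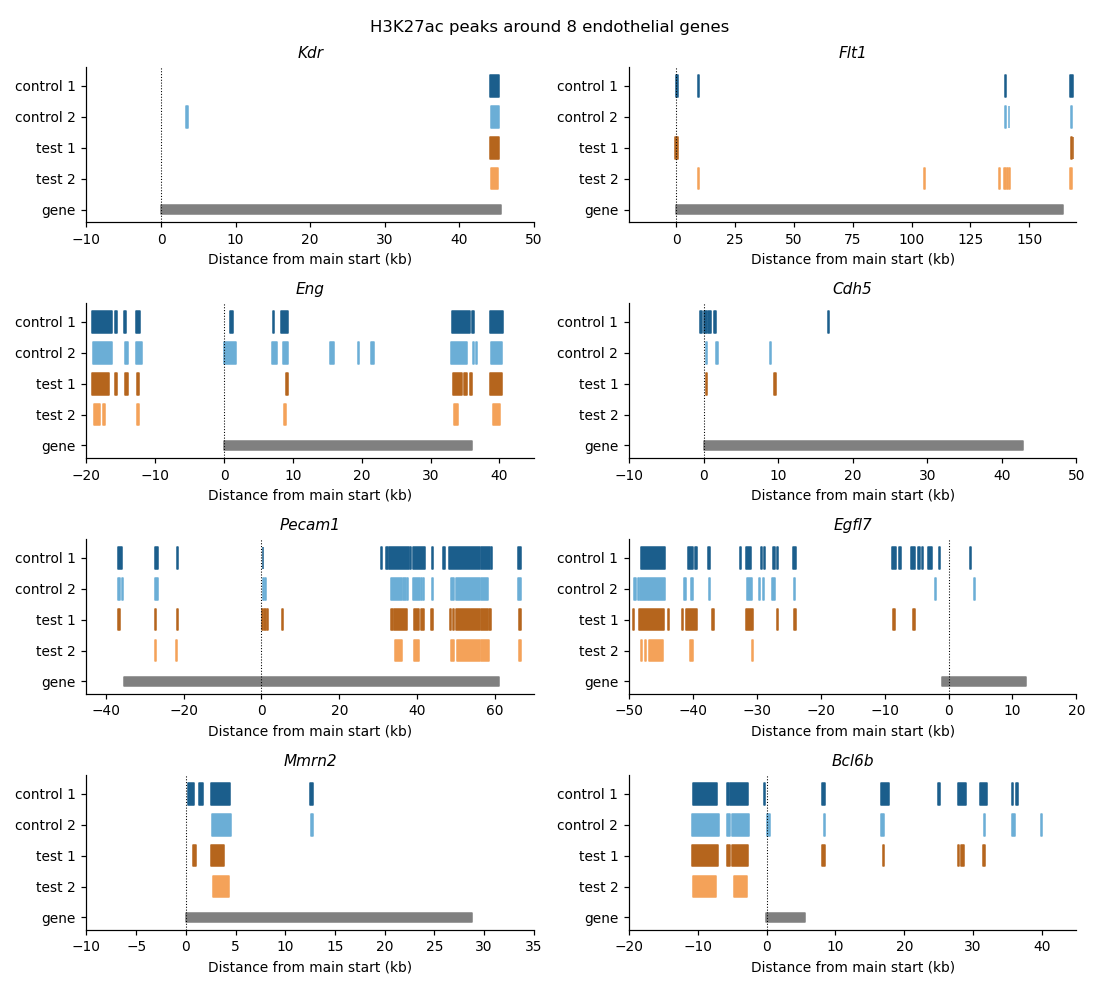
Peak positions in each tumor (rows) by distance in kb from the start of the main transcript (x axis, dotted line at 0) for 8 of the 10 genes, with the annotated gene as a grey bar. Downstream is to the right. Control tumors have peaks at the start of Eng and Cdh5 that test 2 lacks, Pecam1 has broad peaks between 30 and 60 kb in all 4 tumors, and test 2 has the most peaks in the far part of Flt1.

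The next 3 intronic stretches are printed because both control tumors had a peak there and neither test tumor did. Each line gives the bases covered in both control tumors (GRCm38), 5′ to 3′ on the gene's strand, with any of the 4 motifs above to be in capitals.
Eng intron, chr2:32653690-32653867: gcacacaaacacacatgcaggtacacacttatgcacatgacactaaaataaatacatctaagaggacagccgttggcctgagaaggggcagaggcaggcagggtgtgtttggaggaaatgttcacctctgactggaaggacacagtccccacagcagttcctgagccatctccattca
Cdh5 intron, chr8:104103226-104103355: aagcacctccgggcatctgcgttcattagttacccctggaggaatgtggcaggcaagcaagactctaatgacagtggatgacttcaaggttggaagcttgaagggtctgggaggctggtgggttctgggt
Mmrn2 intron, chr14:34388053-34388217: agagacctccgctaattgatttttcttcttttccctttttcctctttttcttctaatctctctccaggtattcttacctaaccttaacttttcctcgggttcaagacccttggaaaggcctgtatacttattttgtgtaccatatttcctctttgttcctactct
None of the 3 held any of these motifs on either strand, so all letters are in lower case. At the same lengths, 25.7%, 19.5% and 24.0% of the centres of all 91238 regions held AGGAAG, and 7.54%, 5.56% and 7.01% held AGATAA. The stretches were 178, 130 and 165 bp long, and their G and C content was 50%, 53.8% and 38.2%.

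The starts of the 10 genes were then compared with those of all genes. In control 1, 7 genes had a peak within 1 kb of a start. Control 2 and test 1 had 4 each, and test 2 had none. Kdr, Tek and Tie1 had none in any tumor. Over all genes the share with a start peak was alike in the 4 tumors, at 56.0%, 56.4%, 56.6% and 54.5%. A start peak in both control tumors and neither test tumor was found for 2 members, Eng and Bcl6b, against 0.925% of the 13075 genes with a start peak in any tumor. Cdh5 and Pecam1 had one in every tumor but test 2, an outcome shared with 372 of those 13075 genes. Start peaks missing from control 1 alone (125 genes), control 2 alone (83) or test 1 alone (45) were less common. The most covered start among the members had 1012 bp of peaks (Eng, control 2). Most starts in the shares above were wider, with medians of 1444 to 1572 bp per tumor over the 11414 genes covered in all 4 tumors. In a window of 10 kb on either side of the 5′ end, 5 of the 9 covered members had both control tumors above both test tumors, against 11.6% of all covered genes. Pecam1 was among the 5 by its 5′ end beside Milr1, and within 10 kb of its main start the groups overlapped, with a difference of 1.28 points. In the gene body alone 5 of 8 did, against 13.4%.

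**Figure D3:**
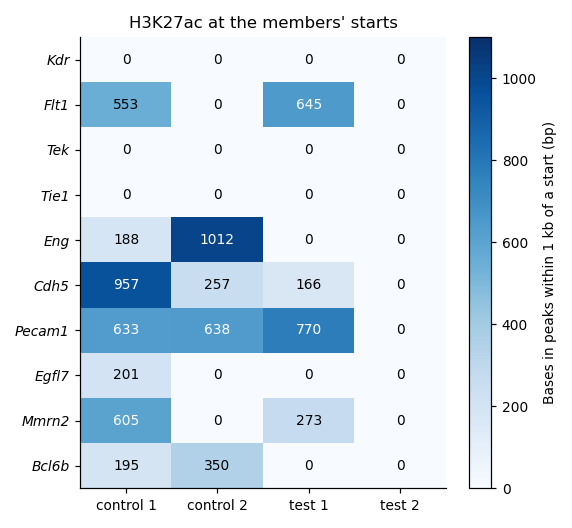
Bases in H3K27ac peaks within 1 kb of any annotated start, as a number and by shade, for the 10 genes (rows) in the 4 tumors (columns). Test 2 is at 0 for every gene, Eng and Bcl6b are covered in both control tumors and neither test tumor, and Egfl7 is covered in control 1 alone.

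The windows held 151 regions. Control tumors had peaks at 67.5% and 64.9% of them, and test tumors at 57.0% and 38.4%. The share was near the genome-wide one in the control tumors and below it in the test tumors, most of all in test 2 at 38.4% against 57.0%. Regions present in both control tumors and neither test tumor numbered 10, or 6.62%, against 3.41% of all regions. The reverse held for 1 region, or 0.662%, against 1.47% of all regions, and it lay at a start of St6galnac6 in the window of Eng (chr2:32607153-32607747). Besides the 7 named above at the start and intron of Eng, the introns of Cdh5 and Mmrn2 and upstream of Egfl7, the 10 included a region in Fpgs (chr2:32682676-32682899), an intergenic region in the window of Bcl6b (chr11:70193624-70194116) and a region in Milr1 (chr11:106761970-106762634).

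Regions at the members' own starts or in their bodies were set beside those elsewhere in the windows, without a test. The 50 own regions covered 34.5 and 28.7 kb in control tumors and 23.3 and 18.5 kb in test tumors, or 31.6 ± 4.12 kb and 20.9 ± 3.40 kb (SD, n = 2 in each group), a ratio of 0.660. The 101 other regions covered 76.7 and 77.3 kb in control tumors and 75.9 and 62.6 kb in test tumors, a ratio of 0.899, with test 1 within 2 kb of the control tumors. Of the 9 own regions present in all 4 tumors, 7 were wider in both control tumors and 0 in both test tumors. Those 7 belonged to Pecam1 (4), Eng (2) and Mmrn2 (1). Of the 34 others, 4 were wider in both control tumors and 4 in both test tumors. Over all 34804 such regions the shares were 13.3% and 19.1%. Pecam1 and Eng held most of the covered length. Without Pecam1 the own regions covered 12.0 and 11.5 kb in control tumors and 6.05 and 6.12 kb in test tumors. Without Pecam1 and Eng they covered 7.93 and 4.92 kb and 3.77 and 5.33 kb, and the groups overlapped.

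**Figure D4:**
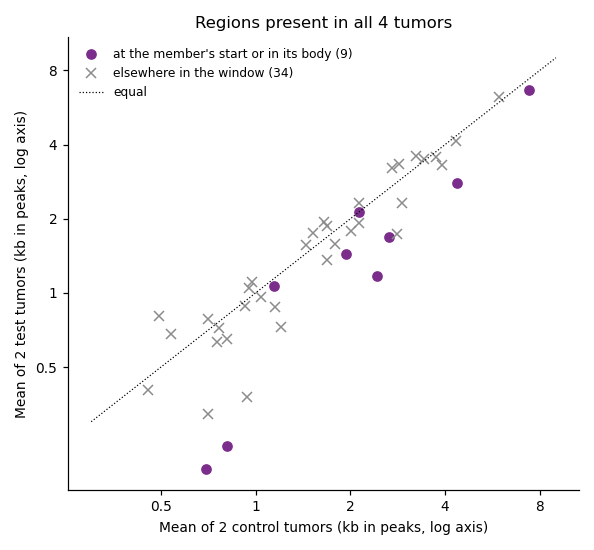
Mean covered width per group, in kb on log axes, of the 43 regions in the windows that were present in all 4 tumors, with test tumors on the y axis and control tumors on the x axis. Filled points lie at a member's start or in its body, crosses lie elsewhere, and the dotted line marks equal widths. The 9 filled points lie below the line, with 7 wider in both control tumors, and the crosses lie on either side.

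Other genes of the vessel wall and of the pathway were counted in the same way. The counts of each list below stand beside 13.0% of all genes with the control tumors higher and 17.3% with the test tumors higher, and the start peaks beside 54.5% to 56.6% of all genes. Of 20 other endothelial surface and junction genes, 9 had both control tumors above both test tumors in window coverage and 0 the reverse, and start peaks were found for 14 and 9 of them in control tumors and 8 and 3 in test tumors. Cd93, a lectin-like receptor of endothelium and myeloid cells, was covered at 6.34% and 3.22% in control tumors and at 1.33% and 2.64% in test tumors. S1pr1, the sphingosine-1-phosphate receptor that steadies junctions, was covered at 4.66% and 1.29% in control tumors and at 0.801% and 0.668% in test tumors. Sema3g was covered at 9.73% and 9.75% in control tumors and at 9.66% and 6.24% in test tumors. The median difference over this list was -0.25 percentage points.

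Of 19 transcription factor genes used by endothelium, 4 had the control tumors higher and 0 the test tumors, with start peaks for 15 and 14 of them in control tumors and 15 and 10 in test tumors. Ets1 was covered at 12.1% and 12.9% in control tumors and at 9.17% and 6.87% in test tumors, with its start covered in all 4. Klf2, a gene induced by blood flow, was covered at 6.39% and 4.34% in control tumors and at 4.17% and 1.93% in test tumors. Fli1, an ETS factor, was covered at 4.17% and 2.82% in control tumors and at 1.99% and 0.717% in test tumors. Several of these factors are also used by leukocytes.

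The ligands and other receptors were counted next. Of 8 VEGF and angiopoietin ligand genes, 1 (Angpt4) had the control tumors higher and 0 the test tumors, and each tumor had a start peak at 5 of them. Of 16 genes listed as other angiogenic receptors and co-receptors, 2 had the control tumors higher and 3 the test tumors. Start peaks were found for 13 in each tumor but test 2, which had 12. This list also held the ligand genes Dll4, Jag1 and Efnb2. Flt4, the VEGF receptor of lymphatic vessels, was covered at 1.55% and 1.27% in control tumors and at 0.733% and 0.187% in test tumors. Unc5b, a netrin receptor, was covered at 9.51% and 9.68% in control tumors and more widely in test tumors, at 10.5% and 11.5%. The Notch ligand gene Dll4 was covered at 6.96% and 6.75% in control tumors and at 7.01% and 8.42% in test tumors. Its window overlaps that of Spint1, which is counted below among the luminal epithelial genes. Peaks within 1 kb of its start covered 273 bp in control 1 and 338 bp in test 1 and none in control 2 or test 2. Of 5 covered lymphatic genes 2 had the control tumors higher and 0 the test tumors, and 1 of these was Flt4, already counted among the receptors. Pdpn, podoplanin, was covered at 5.52% and 5.22% in control tumors and at 3.33% and 0.742% in test tumors. Among 12 pericyte genes the counts were 3 and 1, and Pdgfrb was among the 3 as well as among the 2 receptors with this order. Acta2, smooth muscle actin, was covered at 13.0% and 12.3% in control tumors and at 11.1% and 6.38% in test tumors, Cspg4 was also higher in control tumors, and Notch3 was higher in test tumors, at 7.47% and 7.31% against 5.06% and 5.85%.

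Markers of other cell types were counted over the same tumors. Of 15 myeloid genes, 10 had both control tumors above both test tumors and 0 the reverse. Their median window coverage ran from 7.50% in control 1 through 5.89% in control 2 and 4.37% in test 1 to 2.09% in test 2. Start peaks were found for 14 and 12 of them in control tumors and 12 and 10 in test tumors. The 3 named by size, C1qa, C1qb and C1qc, complement genes of macrophages, are neighbours and share 1 locus. Of 13 covered fibroblast genes, 5 had the control tumors higher and 1 the test tumors, with start peaks for 8 and 4 of the 14 listed in control tumors and 5 and 1 in test tumors, and Prrx1 was covered at 10.1% and 10.6% in control tumors and at 3.95% and 2.12% in test tumors, followed by Col6a3 and Dcn. Of 15 luminal epithelial genes, 0 had the control tumors higher and 4 the test tumors (among them Esrp1, Ehf and Spint1), against 17.3% of all genes, with a median difference of 1.16 points. The T cell list was divided at 4 and 4 of 14, with start peaks for 3 and 3 of them in control tumors and 4 and 1 in test tumors. Bcl11b had a difference of -3.81 points, and the neighbouring receptor genes Cd3e and Cd3d had differences of 2.32 and 2.24 points. The adipocyte list was divided at 1 and 1 of 8, with differences of 0.63 points for Fabp4 and -0.29 for Lep. Of the 12 covered hepatocyte and neuronal genes, which this tissue should not use and none of which had a start peak in any tumor, 3 had the control tumors higher and 0 the test tumors, with a median difference of -0.49 points. These were Ttr, with a difference of -0.36 points, and Apoa1 and Apoc3, with differences of -1.27 and -1.20 points, which are neighbours and share most of 1 window. The part of other cell types in the result at the 10 endothelial genes was not tested.

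**Figure D5:**
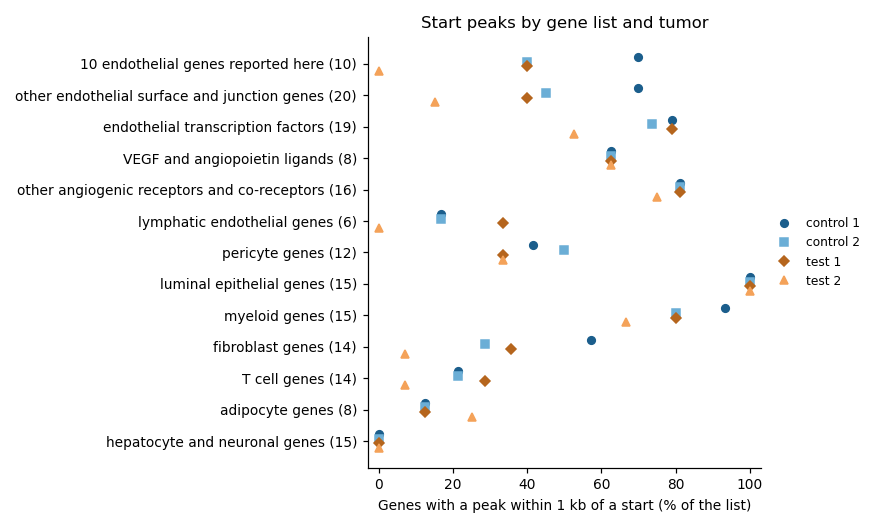
Share of the genes of each list, in percent (x axis), with a peak within 1 kb of a start, for the 4 tumors (points), with the number of genes in brackets. The 10 endothelial genes range from 70% in control 1 to 0% in test 2. The other endothelial, endothelial transcription factor, other angiogenic receptor, lymphatic, myeloid, fibroblast and T cell lists also lie lowest in test 2. The ligand, pericyte and adipocyte lists do not lie lowest in test 2 alone, and the luminal epithelial genes are at 100% in every tumor.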

How the data were processed

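H3K27ac ChIP-seq was done on 4 whole tumors, 2 per group. Reads were mapped by the authors to mm10 (GRCm38) using BWA, and MACS2 was run per tumor with its input as control. The deposited lists hold peak positions in base pairs, cleaned by a rule not given in the sources used here and joined so that the smallest gap was 201 bp. They hold no score or count, so depth is unknown. Inputs were not analysed here. Groups came from the genotype labels.

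Genes were taken from GENCODE M21 on 21 chromosomes, and window coverage was the percent of bases in peaks within the gene body plus 50 kb. Overlapping or adjoining peaks of the 4 lists were joined into regions, present in a tumor at 1 bp or more of overlap. A region was assigned to a member's start (1 kb either side), its body, other starts, other genes or none, in that order. The main start was that of the APPRIS principal transcript. No test was run. The members and all 12 other lists were chosen with earlier results of these data known. All 10 members were named, and from each other list the 3 genes with the largest coverage difference among those whose groups did not overlap. Interval code was tested on simulated data. Python 3.11.15, numpy 2.4.6 and pysam 0.24.0 were used. Alternatives are given in the closing section.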

Additional observations from a re-analysis of the deposited data

How the results depend on the processing

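The number of members with both control tumors above both test tumors (6) was 3 with 100 kb on either side and stayed within 1.5 times under the other settings. It was 4 without the bases of other genes. The median difference over members (-0.73 points) was -1.64 in the gene body alone, -1.74 with 10 kb, -0.28 with 100 kb, -0.35 with peaks of at least 1 kb, -1.14 with peaks within 1 kb joined, -0.37 to -1.08 when 1 tumor was left out, and -1.27 without the bases of other genes. In another unit, as fold over each tumor's own genome, it was -0.27. The number of control-only regions (10) was 0 with peaks of at least 1 kb, 5 with peaks within 1 kb joined, 4 in the gene body alone and 5 with 10 kb, and leaving out 1 tumor gave 11 to 34, where asking for 1 tumor of a group raises the count by construction. The 1 test-only region became 0 with peaks of at least 1 kb, with joined peaks, in the gene body alone, with 10 kb and when a region had to be covered by at least 50% to be present, 4 with 100 kb, and 3 to 14 when 1 tumor was left out. The sign turned for 3 differences, to 1.12 points for Egfl7 with peaks of at least 1 kb, to 0.69 for Mmrn2 with 100 kb, and to 1.28 for Pecam1 within 10 kb of the main start in place of the 5′ end, an alternative chosen after seeing the data. The cause was not tested. Those of Flt1 and, without test 2, Tie1 also crossed 0 within 1 SD. In all, 93 of 110 window values, those as fold not counted, and 74 of 80 start values moved by less than 1 SD. Leaving out 1 of 2 tumors cannot move a difference by 1 SD over the 4 tumor pairs. Those values were therefore counted as unmoved by construction and say nothing on stability. No paired analysis was possible because the numbers 1 and 2 only name tumors in the order of the samples, and no label ties a control to a test tumor. Depth is unknown and limits what an absent peak shows.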
